A study of Mus musculus with 6 samples.

Results

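The 39 genes described here encode proteins of homologous recombination (11 genes), the Fanconi anaemia pathway (5 genes), DNA damage sensing and checkpoint signalling (10 genes), end joining (5 genes), mismatch repair (2 genes) and excision repair (6 genes). They were chosen by name, and all 39 were found among the 54532 genes of the deposited expression table. That table holds RNA-seq of peritoneal macrophages, given as FPKM, which is the reads of a gene scaled by its length and by the size of the library. The p16High group is 3 libraries of EGFP cells and the p16Low group is 3 libraries of tdTomato cells. Both groups were F4/80+ cells, taken with magnetic beads from the peritoneal cavity of C57BL/6 mice kept for 12 months and then separated by cell sorting. Both also share the genotype, p16-Cre with the Rosa26-mTmG reporter. In that reporter Cre removes a tdTomato cassette for good and EGFP is made in its place, so the colour records that Cre acted in a cell or its ancestors at some earlier time, not the p16 level on the day of the sort. Separate mice are not named for the 3 libraries of a group, so the p-values measure only the spread between these libraries.

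Homologous recombination repairs broken DNA by copying an intact sister strand, so it works in cells that are replicating or have replicated their DNA, and the Fanconi anaemia pathway feeds crosslinked DNA into it. End joining seals breaks without a template, and base and nucleotide excision repair replace damaged bases, and both can act in resting cells. Many recombination and replication genes are transcribed with the cell cycle through E2F factors and the complexes that bind CCAAT and CHR elements. Resident peritoneal macrophages renew themselves by local division, so a sample of them can hold resting and dividing cells. In bulk RNA, fewer dividing cells and less RNA per cell cannot be told apart.

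The library totals were 16.52 to 19.57 M reads in p16High and 18.46 to 20.87 M reads in p16Low, and 3 reads in a library correspond to 0.144 to 0.182 CPM (reads scaled to a common library size). The identity as macrophages was checked with 10 markers, all of which were tested, and Lyz2 alone took 9.78 to 11.1% of the reads of every library. Of the 10 markers, 9 were higher on average in p16High. Vsig4 alone passed the threshold (log2 fold change 0.77, limma adjusted p = 0.0255), beside 0.174% of tested genes higher. The groups did not overlap, higher in p16High, for 4 markers and lower for 1, beside 5.61% and 5.5% of genes above 0. Adgre1, which encodes F4/80, averaged 2590 ± 163 FPKM in p16High cells and 1980 ± 644 FPKM in p16Low cells (SD, n = 3 each). The p16Low replicate 2 library stood apart from the other 5: its first principal component score was 48.87, against -15.89 to -4.699 in the others, and that component held 55.6% of the variance. Results are therefore given with and without it where that matters. Markers of B cells summed to 137 to 205 FPKM in p16High cells and 226 to 242 FPKM in p16Low cells, with 7 of 9 lower on average in p16High and none past the threshold. The 7 T and NK cell markers summed to 4.94 to 5.66 FPKM in p16High cells and 8.13 to 9.80 FPKM in p16Low cells, nearly all of it from Cd2, while Ncr1 was at 0 in every library. The 5 mast cell markers summed to 1.03 to 3.50 FPKM in p16High cells and 0 to 0.235 FPKM in p16Low. The 5 dendritic cell markers summed to 14.8 to 25.2 FPKM in p16High and 8.71 to 10.7 FPKM in p16Low. Most of that came from Cd209a, which averaged 18.2 FPKM in p16High and 8.36 FPKM in p16Low. Of the 5, 4 were higher on average in p16High, and Ccr7 was lower (0.151 FPKM, against 0.443 FPKM in p16Low). The 5 neutrophil markers summed to 22.3 to 31.9 FPKM in p16High and 28.1 to 50.4 FPKM in p16Low, with S100a9 and Ly6g at 0 throughout, and eosinophil, mesothelial and red cell markers summed to at most 0.188 FPKM in any p16High library and 0.415 FPKM in any p16Low library. The part of these other cells in the results below was not tested.

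The stretches of DNA just upstream of 5 members are shown as examples from the classes that are contrasted. They are the 3 homologous recombination or Fanconi members with the smallest p that have an entry in the RefSeq promoter table for GRCm38.p6, and the end joining and the excision repair member with the highest FPKM. Each is the 150 bases before the RefSeq transcription start, on the strand of the gene, and capitals mark a CCAAT box (CCAAT, or ATTGG on the other strand) or an E2F-type match (TTGGCGC or TTCCCGC, or their reverse complements).
Fanca, chr8:123318577-123318726, minus strand: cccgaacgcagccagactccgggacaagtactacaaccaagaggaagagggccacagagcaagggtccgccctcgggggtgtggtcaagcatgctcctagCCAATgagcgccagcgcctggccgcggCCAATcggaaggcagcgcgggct
Rad54l, chr4:116123691-116123840, minus strand: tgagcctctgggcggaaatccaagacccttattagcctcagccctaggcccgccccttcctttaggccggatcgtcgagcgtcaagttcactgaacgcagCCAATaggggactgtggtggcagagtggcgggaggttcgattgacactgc
Rad51ap1, chr6:126939588-126939737, minus strand: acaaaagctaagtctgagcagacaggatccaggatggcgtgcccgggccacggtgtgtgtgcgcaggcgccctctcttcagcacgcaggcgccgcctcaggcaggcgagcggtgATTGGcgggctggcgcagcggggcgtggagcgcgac
Xrcc6, chr15:82016219-82016368, plus strand: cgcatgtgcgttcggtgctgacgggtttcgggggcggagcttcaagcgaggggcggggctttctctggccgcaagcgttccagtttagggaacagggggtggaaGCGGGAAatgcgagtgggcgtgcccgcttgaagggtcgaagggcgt
Parp1, chr1:180568741-180568890, plus strand: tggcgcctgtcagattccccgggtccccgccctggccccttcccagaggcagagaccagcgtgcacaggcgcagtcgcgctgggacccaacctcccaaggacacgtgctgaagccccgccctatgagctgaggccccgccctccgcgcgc
The 3 recombination and Fanconi stretches each hold a CCAAT box close to the start, Fanca a pair of them. The Xrcc6 stretch holds an E2F-type match and no CCAAT box, and the Parp1 stretch holds neither. Beyond these stretches, the longer windows described next hold a CCAAT box for Xrcc6 as well and an E2F-type match for Rad51ap1, so the stretches alone do not separate the classes. The gene model of Xrcc6 in the table begins further upstream, at 81987835, than the RefSeq start used here.

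In the longer windows of 300 bases, from 250 before to 50 after the start, 29 of the 39 members had an entry. The motifs were searched on both strands. A CCAAT box was found in 9 of 12 windows of homologous recombination and Fanconi members (75.0%) and in 3 of 8 windows of end joining and excision repair members (37.5%), beside 37.4% of all 32851 promoter windows. An E2F-type match was found in 6 of 12 windows of the first group (50%) and in 2 of 8 of the second (25%), beside 6.81% of all windows and 12.2% of the windows of tested genes. Among the 7 windows of sensing and checkpoint members 4 had an E2F-type match (57.1%) and 4 had a CCAAT box (57.1%). Of the mismatch repair windows, 2 of 2 had a CCAAT box and 2 of 2 had an E2F-type match. A GC box (GGGCGG, which can overlap GCGGGAA, the reverse complement of TTCCCGC) was found in 21 of 29 members (72.4%), beside 63.1% of the windows of tested genes. The CHR element (TTTGAA) was found in 1 of 29 members (3.45%), Bard1, beside 12.4% of the windows of tested genes. These are matches of letters only, and binding of a factor was not measured.

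Of the 39 members, 2 were lower in p16High past the threshold, Fanca and Exo1, and none was higher. The test was limma on log2(FPKM + 1) with Benjamini-Hochberg adjustment at 0.05 over the 10895 genes that reached 1 FPKM in 3 or more libraries. Over those genes 0.716% were lower in p16High and 0.174% were higher. At an unadjusted p under 0.05, 7 members were lower and none was higher, beside 4.07% and 3.16% of tested genes. Without p16Low replicate 2, Rad54l joined them and 3 members were lower, beside 1.87% of tested genes lower and 0.89% higher. With no filter on low values no member was called, beside 0.031% of 22566 genes lower and 0.00886% higher. In a limma-voom fit on the reads of the 12396 genes with at least 60 reads over the 6 libraries, which takes in 38 members, Fanca was the 1 member called lower, beside 0.323% of genes lower and 0.105% higher. Of the 39 members 26 were tested and 13 stayed below the filter. Exo1, Fanca and Rad54l passed the filter through their p16Low libraries alone, so for these 3 genes a difference was a condition of being tested, and the counts of tested members are given as description. Over all 39 members, tested or not, the 3 p16High libraries lay wholly below the 3 p16Low libraries for 10 and wholly above for none, beside 5.5% and 5.61% of the 22566 genes with a value above 0. The difference in mean log2(FPKM + 1), p16High minus p16Low, was negative for 33 members and positive for 6, beside 47.8% negative among the genes above 0.

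**Figure D1:**
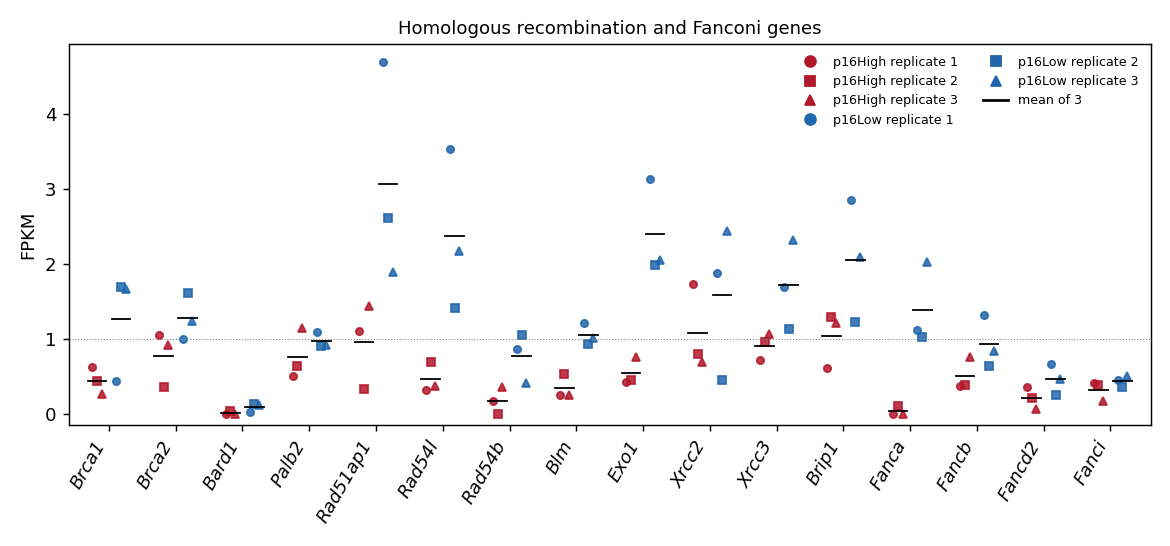
FPKM of the 11 homologous recombination and 5 Fanconi members in each library, with p16High (red) left of p16Low (blue), marker shapes for replicates and a bar at the mean of 3. The dotted line is the filter of 1 FPKM, and the p16High mean lies below the p16Low mean for all 16 genes.

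Homologous recombination genes were low in both fractions and lower on average in p16High for all 11 members. The median difference was -0.59 on the log2(FPKM + 1) scale and the median ratio of mean FPKM, p16High over p16Low, was 0.328. For 6 of the 11 the groups did not overlap, lower in p16High, beside 5.5% of the genes above 0. Of the 6 members tested 1 passed, Exo1, beside 0.716% of all tested genes lower. Exo1 reached 1 FPKM in its p16Low libraries alone, so a difference was a condition of its being tested.

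Exo1, the 5′-to-3′ exonuclease that lengthens the resected ends of a break and also serves mismatch repair, was called. It had 0.431, 0.455 and 0.765 FPKM in p16High, against 3.14, 1.99 and 2.06 FPKM in p16Low. Every p16High library lay below every p16Low library, on 11, 12 and 17 reads in p16High and 78, 56 and 56 reads in p16Low. The means were 0.551 ± 0.186 FPKM in p16High cells and 2.40 ± 0.642 FPKM in p16Low cells (SD, n = 3 each), 4.36-fold lower in p16High. The log2 fold change was -1.12 (SE 0.202, 95% confidence interval -1.58 to -0.66, limma adjusted p = 0.045). Exo1 lies on chromosome 1 at 175880581 to 175913489 (GRCm38), plus strand. Its adjusted p was 0.011 without p16Low replicate 2, and 0.118 to 0.233 without each of the other 5 libraries in turn.

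Rad54l, a motor protein of strand invasion, had 0.323, 0.697 and 0.370 FPKM in p16High, against 3.54, 1.42 and 2.17 FPKM in p16Low. The groups did not overlap, and the p16Low replicate 2 value was the lowest of its group. The means were 0.463 ± 0.204 FPKM in p16High cells and 2.38 ± 1.08 FPKM in p16Low cells (SD, n = 3 each). The log2 fold change was -1.17 (SE 0.252, limma adjusted p = 0.095), which did not pass the test. Without p16Low replicate 2 it was -1.38 (SE 0.242, limma adjusted p = 0.00569), and without each of the other libraries the adjusted p was 0.224 to 0.388. Rad54l overlaps Lrrc41 on the opposite strand over 2780 bases, and the sources used here do not say whether counting used strand.

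Rad51ap1, a DNA-binding protein of strand exchange, had 1.11, 0.326 and 1.44 FPKM in p16High, against 4.70, 2.62 and 1.90 FPKM in p16Low. The groups did not overlap but the spread in each was wide. Its log2 fold change was -1.05 (SE 0.309, limma adjusted p = 0.32). Xrcc3, which takes part in strand exchange, had 0.713, 0.955 and 1.07 FPKM in p16High, against 1.69, 1.14 and 2.32 FPKM in p16Low. These groups came close without overlapping, and the adjusted p was 0.69 (limma). Xrcc3 overlaps Klc1, a far more abundant gene, over 4653 bases.

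Blm, the helicase that dissolves recombination intermediates, and Rad54b, a relative of Rad54l, did not reach the filter but also had groups that did not overlap. Blm had 0.249, 0.536 and 0.254 FPKM in p16High, against 1.22, 0.929 and 1.02 FPKM in p16Low. Rad54b had 0.178, 0 and 0.357 FPKM in p16High, against 0.867, 1.05 and 0.418 FPKM in p16Low. In the limma-voom fit neither passed (adjusted p = 0.247 for Blm and 0.535 for Rad54b).

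The BRCA genes and their partners had overlapping groups. Brca1, which recruits the recombination machinery, had 0.630, 0.444 and 0.263 FPKM in p16High, against 0.441, 1.69 and 1.67 FPKM in p16Low. The p16Low replicate 1 library lay within the p16High range while the other p16Low libraries were well above it. Bard1, the obligate partner of BRCA1, rested on 36 reads in all, 0, 5 and 0 in p16High and 2, 16 and 13 in p16Low. Palb2, which links BRCA1 to BRCA2, had 0.502, 0.634 and 1.15 FPKM in p16High, against 1.10, 0.911 and 0.924 FPKM in p16Low. The groups of Brca1, Bard1 and Palb2 overlapped, and all 3 stayed below the FPKM filter. The limma-voom fit took in Brca1 (log2 fold change -1.34, adjusted p = 0.74) and Palb2 (-0.46, adjusted p = 0.763) and called neither. Brca2, a mediator of strand exchange, averaged 0.778 ± 0.368 FPKM in p16High cells and 1.28 ± 0.310 FPKM in p16Low cells (SD, n = 3 each), with overlapping groups and an adjusted p of 0.747 (limma). Xrcc2, which also takes part in strand exchange, averaged 1.08 ± 0.572 FPKM in p16High cells and 1.59 ± 1.03 FPKM in p16Low cells (SD, n = 3 each), and its highest p16High value of 1.73 FPKM exceeded the lowest p16Low value of 0.453 FPKM (limma adjusted p = 0.823).

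Fanconi anaemia genes were also low. Of the 5 members 2 were tested, and 1 of these, Fanca, passed, beside 0.716% of all tested genes lower. Fanca reached 1 FPKM in its p16Low libraries alone, so a difference was a condition of its being tested. Fanca encodes a subunit of the core complex that ubiquitinates FANCD2 and FANCI at crosslinks. It had 0, 0.106 and 0 FPKM in p16High, against 1.12, 1.03 and 2.03 FPKM in p16Low. In reads, p16High held 0, 3 and 0, and p16Low held 30, 31 and 59. Thus 2 of the 3 p16High libraries had no Fanca read, and each p16Low library had 30 or more. The ratio of CPM, p16High over p16Low, was 0.027 with an exact 95% counting interval of 0.0055 to 0.0809, which covers counting error only. The log2 fold change on the log2(FPKM + 1) scale was -1.19 (SE 0.207, 95% confidence interval -1.65 to -0.72, limma adjusted p = 0.0384). That scale understates changes of genes this low. Its adjusted p was 0.0107 without p16Low replicate 2, and 0.122 to 0.18 without each of the other 5 libraries. Fanca lies on chromosome 8 at 123268300 to 123318576 (GRCm38), minus strand. The gene model Gm20388, on the plus strand and at 0 in all 6 libraries, covers the whole of it, and Zfp276 overlaps its end by 1446 bases, so its counting is uncertain.

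Brip1, the helicase partner of BRCA1 also known as FANCJ, had 0.611, 1.30 and 1.22 FPKM in p16High, against 2.85, 1.23 and 2.09 FPKM in p16Low. The p16Low replicate 2 value fell within the p16High range, and the test did not pass (log2 fold change -0.57, SE 0.249, limma adjusted p = 0.692). Fancb, another core complex subunit, and Fancd2 and Fanci, the pair that the complex modifies, were below the filter with overlapping groups. Fancb averaged 0.508 ± 0.219 FPKM in p16High cells and 0.932 ± 0.353 FPKM in p16Low cells (SD, n = 3 each). The largest value of Fancd2 or Fanci in any library was 0.671 FPKM, for Fancd2 in p16Low replicate 1. Fanci averaged 0.322 ± 0.134 FPKM in p16High cells and 0.439 ± 0.0766 FPKM in p16Low cells (SD, n = 3 each).

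**Figure D2:**
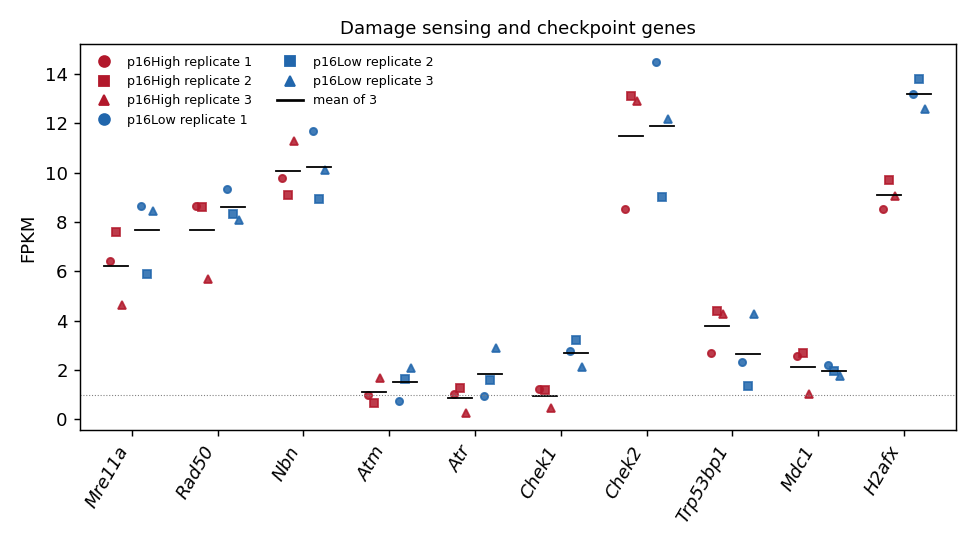
FPKM of the 10 damage sensing and checkpoint members in each library, with p16High (red) left of p16Low (blue) and a bar at the mean of 3. The groups of Chek1 and H2afx do not overlap, with H2afx at 8.54 to 9.71 FPKM in p16High cells and 12.6 to 13.8 FPKM in p16Low.

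None of the 10 damage sensing and checkpoint genes passed the test, although all were tested. Their median difference was -0.19 on the log2(FPKM + 1) scale, beside 0.051 for all tested genes. Chek1, the effector kinase that answers ATR when replication stalls, had 1.21, 1.20 and 0.439 FPKM in p16High, against 2.78, 3.21 and 2.10 FPKM in p16Low. Its groups did not overlap, and its log2 fold change was -0.94 (SE 0.23, 95% confidence interval -1.46 to -0.42, limma adjusted p = 0.163). Chek2, the effector kinase that answers ATM at breaks, had 8.52, 13.1 and 12.9 FPKM in p16High, against 14.5, 9.03 and 12.2 FPKM in p16Low. Those values were spread alike in both groups, with a log2 fold change of -0.046 (95% confidence interval -0.56 to 0.47, limma adjusted p = 0.956). As a share of Chek2 FPKM in the same library, Chek1 was 14.2, 9.17 and 3.4% in p16High, against 19.1, 35.6 and 17.2% in p16Low. The share was thus lower in every p16High library than in any p16Low library, and this comparison was made after the values were seen.

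H2afx, the histone variant that is phosphorylated around breaks, had 8.54, 9.71 and 9.06 FPKM in p16High, against 13.2, 13.8 and 12.6 FPKM in p16Low. The groups were tight and apart, and the means of 9.10 ± 0.584 FPKM in p16High cells and 13.2 ± 0.595 FPKM in p16Low cells (SD, n = 3 each) gave a log2 fold change of -0.49 (SE 0.149, limma adjusted p = 0.346). Atr, the kinase that senses single-stranded DNA, had 1.02, 1.25 and 0.246 FPKM in p16High, against 0.949, 1.60 and 2.89 FPKM in p16Low. The groups overlapped through p16Low replicate 1 (limma adjusted p = 0.737). Atm, the kinase that senses breaks, averaged 1.12 ± 0.520 FPKM in p16High cells and 1.49 ± 0.687 FPKM in p16Low cells (SD, n = 3 each), also with overlap (limma adjusted p = 0.813).

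The complex of MRE11, RAD50 and NBN, which binds broken ends and starts resection, had higher FPKM than the recombination members in both fractions, and none of its 3 genes passed the test. Mre11a averaged 6.21 ± 1.5 FPKM in p16High cells and 7.66 ± 1.54 FPKM in p16Low cells (SD, n = 3 each). Rad50 averaged 7.66 ± 1.71 FPKM in p16High cells and 8.59 ± 0.676 FPKM in p16Low cells (SD, n = 3 each). Nbn had a log2 fold change of -0.02 with a 95% confidence interval of -0.41 to 0.37 (limma adjusted p = 0.975). All 3 overlapped between groups. The 2 members with a positive difference were the chromatin-bound mediators. Trp53bp1, which favours end joining over resection, averaged 3.78 ± 0.951 FPKM in p16High cells and 2.65 ± 1.48 FPKM in p16Low cells (SD, n = 3 each; limma adjusted p = 0.751), and it overlaps Tubgcp4. Mdc1, the scaffold on phosphorylated H2AX, averaged 2.10 ± 0.922 FPKM in p16High cells and 1.96 ± 0.216 FPKM in p16Low cells (SD, n = 3 each; limma adjusted p = 0.984).

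**Figure D3:**
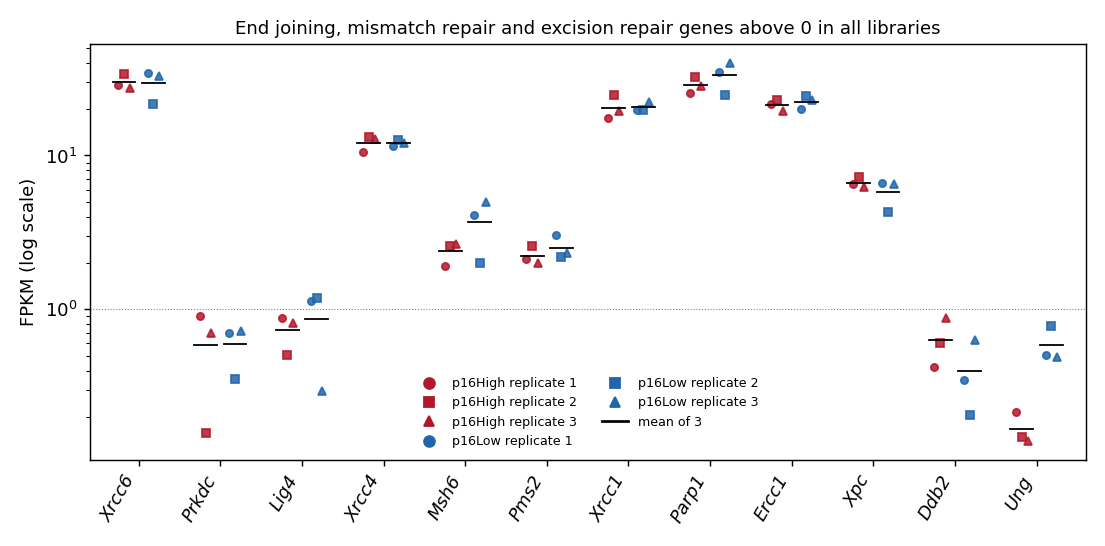
FPKM on a log axis of end joining, mismatch repair and excision repair members above 0 in all 6 libraries (Xrcc5 is left out), with p16High (red) left of p16Low (blue), a bar at the mean of 3 and a dotted line at 1 FPKM. Xrcc6 and Parp1 lie near 30 FPKM in both fractions, and of the 12 genes shown only Ung has groups that do not overlap.

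No end joining member passed the test, and all 5 overlapped between the groups. Their median difference was -0.00072 on the log2(FPKM + 1) scale. Xrcc6, which encodes the Ku70 subunit of the ring that caps broken ends, had 28.8, 34.1 and 27.6 FPKM in p16High, against 34.2, 21.7 and 33.0 FPKM in p16Low. The lowest value was again p16Low replicate 2. The log2 fold change was 0.047 with a 95% confidence interval of -0.40 to 0.49 (limma adjusted p = 0.95), and it turned to -0.16 without that library. Xrcc4, the scaffold of the ligase that seals the ends, had 10.5, 13.1 and 12.8 FPKM in p16High, against 11.6, 12.6 and 12.1 FPKM in p16Low. All 6 values were close together, and the 95% confidence interval of its log2 fold change was -0.36 to 0.36 (limma adjusted p = 0.998).

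The other end joining members were below the filter. Xrcc5, which encodes Ku80, the obligate partner of Ku70, had 0.0413, 0.320 and 0.663 FPKM in p16High, against 0, 0 and 0.350 FPKM in p16Low. It rested on 2, 16 and 28 reads in p16High and 0, 0 and 18 reads in p16Low, with overlap between the groups. Xrcc5 FPKM was at most 2.41% of Xrcc6 FPKM in any library, although the proteins act as a pair. Xrcc6 overlaps Desi1 on the opposite strand over 41340 bases of the gene model, and the sources used here do not say how the reads of either gene were assigned. Prkdc, the kinase that Ku recruits, averaged 0.586 ± 0.385 FPKM in p16High cells and 0.595 ± 0.209 FPKM in p16Low cells (SD, n = 3 each). Lig4, the ligase itself, averaged 0.735 ± 0.204 FPKM in p16High cells and 0.872 ± 0.502 FPKM in p16Low cells (SD, n = 3 each).

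Excision repair held the member with the highest mean FPKM, Parp1, and none of its 4 tested genes passed the test. Parp1, which detects strand breaks and makes poly(ADP-ribose), had 25.4, 32.4 and 28.3 FPKM in p16High, against 34.9, 24.9 and 39.8 FPKM in p16Low. The groups overlapped, and the log2 fold change was -0.19 with a 95% confidence interval of -0.62 to 0.25 (limma adjusted p = 0.79). Without p16Low replicate 2 the log2 fold change of Parp1 was -0.37. Its smallest limma or limma-voom adjusted p under any alternative was 0.147. Ercc1, part of the nuclease that cuts 5′ of a lesion, had 21.6, 22.8 and 19.6 FPKM in p16High, against 20.0, 24.4 and 22.9 FPKM in p16Low. These values were intermixed, with an interval of -0.40 to 0.27 (limma adjusted p = 0.896). Xpc, the sensor of helix distortion, had 6.48, 7.27 and 6.25 FPKM in p16High, against 6.63, 4.27 and 6.50 FPKM in p16Low. The interval of its log2 fold change was -0.26 to 0.64 (limma adjusted p = 0.788). Xrcc1, the scaffold of base excision and single-strand break repair, averaged 20.5 ± 3.71 FPKM in p16High cells and 20.7 ± 1.40 FPKM in p16Low cells (SD, n = 3 each; limma adjusted p = 0.965).

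The exception in the class was Ung, the glycosylase that removes uracil from DNA, which was below the filter. It had 0.214, 0.148 and 0.140 FPKM in p16High, against 0.502, 0.778 and 0.489 FPKM in p16Low. The groups did not overlap, on 7, 5 and 4 reads in p16High and 16, 28 and 17 reads in p16Low, and the limma-voom fit did not call it (log2 fold change -1.71, SE 0.517, adjusted p = 0.364). Ddb2, a damage sensor, averaged 0.632 ± 0.227 FPKM in p16High cells and 0.396 ± 0.220 FPKM in p16Low cells (SD, n = 3 each), with overlap, and it shares bases with the far more abundant Acp2.

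The mismatch repair members did not pass the test. Msh6, which helps to find mismatches, had 1.92, 2.59 and 2.66 FPKM in p16High, against 4.10, 1.99 and 4.98 FPKM in p16Low. The p16Low replicate 2 value lay within the p16High range and the other p16Low libraries lay above it (log2 fold change -0.42, 95% confidence interval -1.02 to 0.19, limma adjusted p = 0.751). Without p16Low replicate 2 the log2 fold change of Msh6 was -0.71. Its smallest limma or limma-voom adjusted p under any alternative was 0.0895, not past the threshold. Pms2, which acts after a mismatch has been found, had 2.11, 2.56 and 2.0 FPKM in p16High, against 3.02, 2.19 and 2.31 FPKM in p16Low cells, with overlap (limma adjusted p = 0.849).

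**Figure D4:**
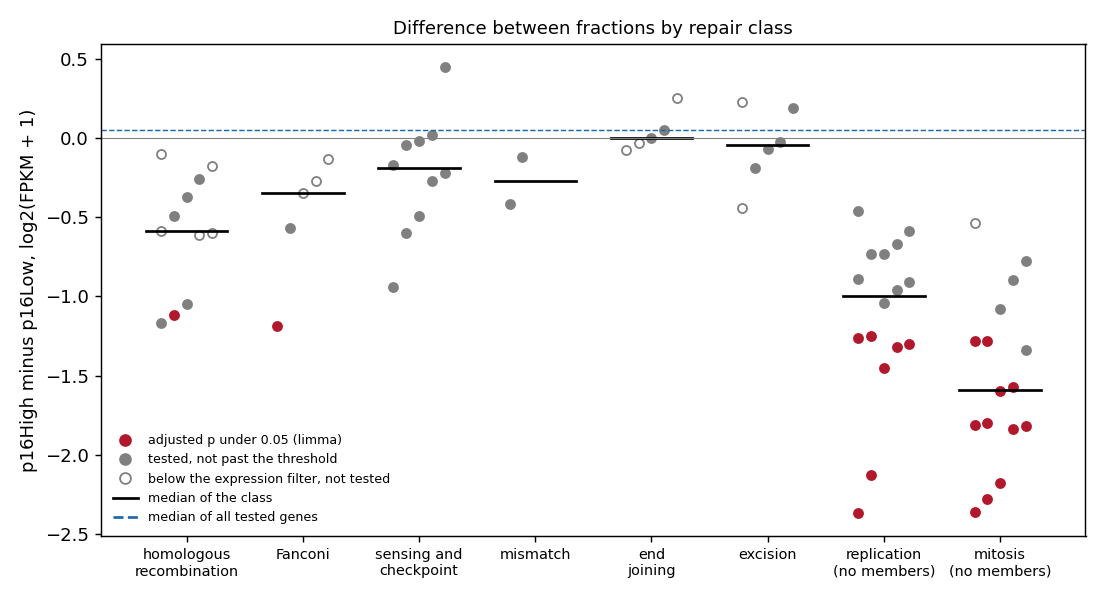
Difference in mean log2(FPKM + 1), p16High minus p16Low, of each member by class and of replication and mitosis genes that are no members, with red points past the limma threshold, grey points tested and not past it, and open points below the filter. The medians of the member classes run from -0.59 for homologous recombination to -0.00072 for end joining. Those of the replication and mitosis genes are -1.0 and -1.59, and the dashed line is the median of all tested genes at 0.051.

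Set side by side, the 16 homologous recombination and Fanconi members all had a negative difference, with a median of -0.53 and a range of -1.19 to -0.10. The 11 end joining and excision repair members had 7 negative and 4 positive differences, with a median of -0.025 and a range of -0.44 to 0.25. The groups did not overlap, lower in p16High, for 7 of the 16 and for 1 of the 11, beside 5.5% of the genes above 0, and the 1 of 11 is near that share. Summed over the 16 members, FPKM was 8.68, 7.64 and 9.49 in p16High, against 26.0, 17.5 and 22.2 in p16Low. Summed over the 11 members, it was 113 to 136 FPKM in p16High cells and 110 to 139 FPKM in p16Low. The first sum did not overlap between the groups and the second did. The difference between the classes was not tested. The 2 sets also differ in level: means over all 6 libraries ran from 0.0523 to 2.02 FPKM in the 16 and from 0.229 to 31.0 FPKM in the 11, so the recombination members rest on fewer reads.

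Among 102 further repair genes that are no members, 101 were in the table and 89 were tested, and 2 were lower in p16High, Clspn and Timeless. None was higher, beside 0.716% of all tested genes lower and 0.174% higher, and the median difference of the 101 was -0.034. Clspn, the adaptor through which ATR activates CHK1, had 0.286, 0.0308 and 0 FPKM in p16High, against 1.79, 3.52 and 1.44 FPKM in p16Low cells (log2 fold change -1.51, SE 0.256, limma adjusted p = 0.0361). Timeless, a fork protection protein that works with CLASPIN, had 0.337, 0.401 and 0.416 FPKM in p16High, against 1.62, 3.27 and 2.24 FPKM in p16Low cells (log2 fold change -1.26, SE 0.213, limma adjusted p = 0.0361). Both genes were wholly lower in p16High, as Chek1 was. Atrip, of the same list, was wholly higher, with 4.63 ± 0.390 FPKM in p16High cells and 3.83 ± 0.288 FPKM in p16Low cells (SD, n = 3 each, limma adjusted p = 0.758). The groups overlapped for 14 of the 18 further sensing and checkpoint genes. Like Exo1, Fanca and Rad54l, Clspn and Timeless reached 1 FPKM in their p16Low libraries alone, so a difference was a condition of their being tested. Neither was called without any 1 of the 5 libraries other than p16Low replicate 2, with adjusted p of 0.0607 to 0.187 for Clspn and 0.0654 to 0.184 for Timeless. Tipin, the partner of TIMELESS, averaged 18.3 ± 2.05 FPKM in p16High cells and 32.1 ± 5.42 FPKM in p16Low cells (SD, n = 3 each, limma adjusted p = 0.11). Without p16Low replicate 2 Tipin was called, as 1 of 7 further repair genes lower in p16High, beside 1.87% of tested genes lower.

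By class, the groups did not overlap, lower in p16High, for 13 of 24 further homologous recombination genes (median difference -0.24). For further Fanconi genes the count was 1 of 13 (median difference -0.077, with 5 differences positive). It was 3 of 18 for further sensing and checkpoint genes (median difference -0.1). For further end joining genes it was none of 12 (median difference 0.036), and for further excision repair genes 3 of 31 (median difference 0.064). The share was 5.5% over the genes above 0, and the Fanconi count is near it. Groups did not overlap, higher in p16High, for 3 of the 31 excision repair and 1 of the 18 sensing and checkpoint genes, beside 5.61%. For the 24, the 13 and the 12 there were none. No gene of the homologous recombination, Fanconi, end joining and excision repair lists passed the test with all 6 libraries. Rpa2, a subunit of the protein that coats single-stranded DNA, averaged 18.2 ± 4.79 FPKM in p16High cells and 32.4 ± 4.25 FPKM in p16Low cells (SD, n = 3 each; limma adjusted p = 0.16). Neil3, a glycosylase placed in the excision list that also opens crosslinks at replication forks, averaged 0.401 ± 0.395 FPKM in p16High cells and 2.53 ± 1.35 FPKM in p16Low cells (SD, n = 3 each; limma adjusted p = 0.13). Ogg1, the glycosylase for oxidised guanine, went the other way, with 7.18 ± 0.629 FPKM in p16High cells and 4.71 ± 0.713 FPKM in p16Low cells (SD, n = 3 each; limma adjusted p = 0.45). Without p16Low replicate 2, Rpa2 and Neil3 were called lower in p16High. Neil3 reached 1 FPKM in its p16Low libraries alone, so a difference was a condition of its being tested. The most abundant genes of 4 of the lists did not pass the test. These were Swi5 (131 ± 7.98 FPKM in p16High cells and 156 ± 25.4 FPKM in p16Low), Babam1 (112 ± 5.29 FPKM in p16High cells and 109 ± 6.87 FPKM in p16Low), Usp1 (15.9 ± 1.49 FPKM in p16High cells and 17.8 ± 2.2 FPKM in p16Low) and Msh3 (3.31 ± 0.601 FPKM in p16High cells and 4.02 ± 1.43 FPKM in p16Low cells; SD, n = 3 each throughout).

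Genes of DNA replication and mitosis that are no members were measured beside the repair genes. Of 31 tested, 18 were lower in p16High past the threshold and none was higher, beside 0.716% of all tested genes lower and 0.174% higher. Summed over the 32 measured, FPKM was 189 to 204 in p16High and 437 to 542 in p16Low. Rrm2, a subunit of the enzyme that makes deoxynucleotides, averaged 4.10 ± 0.666 FPKM in p16High cells and 25.5 ± 4.54 FPKM in p16Low cells (SD, n = 3 each; log2 fold change -2.37, limma adjusted p = 0.00169). Top2a, the topoisomerase of mitotic chromosomes, averaged 2.69 ± 0.410 FPKM in p16High cells and 18.1 ± 3.95 FPKM in p16Low cells (SD, n = 3 each; log2 fold change -2.36, limma adjusted p = 0.00197). Tk1 (log2 fold change -2.13), Cdk1 (-1.81), Birc5 (-2.28) and Cdc45 (-1.25) also passed the test. With any 1 of the 6 libraries left out Rrm2, Top2a, Tk1, Cdk1 and Birc5 stayed past the threshold. With no filter on low values only Rrm2 and Top2a did. Cdc45 lost its call without each of the 5 libraries other than p16Low replicate 2 (limma adjusted p = 0.0934 to 0.138). Of 9 tested cycle transcription factors none passed; Mybl2, which drives genes of late S phase and mitosis, averaged 0.275 ± 0.272 FPKM in p16High cells and 2.72 ± 1.13 FPKM in p16Low cells (SD, n = 3 each; limma adjusted p = 0.0509), Foxm1 had an adjusted p of 0.20 and E2f8 of 0.324. Mybl2 and E2f8 reached 1 FPKM in their p16Low libraries alone, as did Plk1 and Ccnb1 among the called mitosis genes. For these genes too a difference was a condition of being tested. The part of the share of dividing cells in the repair results was not tested.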

How the data were processed

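Per the labels' protocols, RNA of sorted cells was made into sequencing libraries. The deposited table gives FPKM values made by the authors. Per the submitters' processing notes, the tools were TopHat2 2.0.12, Bowtie2 2.2.3 and HTSeq 0.6.1. Their settings, strand use and the build were not given in the sources used here. Gene coordinates match GRCm38 (GENCODE M21) for 98.3% of IDs.

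The members and gene lists were chosen with earlier results of these data known. Genes with at least 1 FPKM in 3 or more libraries were tested with limma 3.58.1 (R 4.3.3) on log2(FPKM + 1), with a trend, at a Benjamini-Hochberg adjusted p of 0.05. A log2 fold change is a difference on that scale and understates changes of low genes; folds are ratios of mean FPKM. Reads were worked back from FPKM and annotated lengths: 96.1% of 22566 genes gave whole reads within 0.001, and lengths were searched for the rest. The script was checked on simulated data.

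Named were all members; values in every library went to those past the threshold, the 3 with the smallest p and the most abundant of each class, and further genes described after their values were seen. Of other repair genes, those past the threshold and the most abundant of each class were named, with Atrip, Tipin, Rpa2, Neil3 and Ogg1 added after their values were seen. Of cycle genes, the 3 with the smallest p per list were named. Hrob was not analysed here. Some genes that the rule names are not reported here. Alternatives were other scalings, filters, a pseudocount of 0.1, limma-voom on reads, the replicate number as a block, and each library left out.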

Additional observations from a re-analysis of the deposited data

How the results depend on the processing

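In the design as reported, 97 of all tested genes, 2 members (both homologous recombination or Fanconi), 2 other repair genes and 18 cycle genes were called. With no filter these counts were 9, 0, 0 and 2. With limma-voom on genes with at least 60 reads, an alternative chosen after seeing the data, they were 53, 1 (Fanca), 0 and 12. With a mean FPKM filter 1 member was called (Exo1), with a pseudocount of 0.1 it was 1 (Fanca), and with quantile normalization 0 other repair genes were. Leaving out each library gave 17 to 301 genes, 0 to 3 members, 0 to 7 other repair genes and 7 to 29 cycle genes. The upper ends came without p16Low replicate 2, when the members Exo1, Fanca and Rad54l were called, and no member was called without any 1 of the other 5. The other repair genes called without p16Low replicate 2 were Clspn, Neil3, Rpa2, Timeless, Tipin, Topbp1 and Wee1. The sensing and checkpoint members and the end joining and excision repair members had 0 calls under every alternative run. The median difference of the homologous recombination and Fanconi members was -0.90 with a pseudocount of 0.1, and -0.56 to -0.42 with each library left out. That of the end joining and excision repair members was -0.043 to 0.077 with each library left out, which includes 0. Uncalled log2 fold changes close to 0 changed sign when single libraries were left out. Chek2 ran from -0.22 (without p16Low replicate 2) to 0.14 (without p16High replicate 1) and Xrcc4 from -0.056 to 0.093. Xrcc6 ran from -0.16 (without p16Low replicate 2) to 0.16 (without p16Low replicate 1), and was -0.013 with quantile normalization. Msh3 ran from -0.32 to 0.029 (without p16Low replicate 1). The cause of these changes was not tested. With the replicate number as a block 0 members and 3 other repair genes (Clspn, Neil3 and Timeless) were called, of 67 genes in all. Deviations of same-numbered libraries correlated at -0.189, -0.173 and 0.0143, and those of libraries with different numbers at -0.196 to 0.244. With 3 libraries in a group these values cannot tell whether the numbers pair the fractions. Depth limits the low members: Bard1 rested on 36 reads over the 6 libraries, and differences in genes this low may not be detectable. Class medians were not run under the filters, quantile normalization, limma-voom or the block.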
